A study of Triticum aestivum with 12 samples.

Results

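The distal stretch of chromosome 3D described here held 848 genes, those with IDs from TraesCS3D02G457000 to TraesCS3D02G543100 in the wheat gene annotation used by the deposited files, without TraesCS3D02G505200 and TraesCS3D02G540600. They were 848 of the 107892 genes of the table and of the 5318 genes of chromosome 3D. The members were chosen by measured values of these same libraries, the ratio of the RNAi line E82 to the wild type (WT) in grain and in leaf. Those ratios are therefore given as a description, without a test, and the number of members counted as changed between the lines is not evidence for the stretch. The comparisons of grain with leaf within each line were other contrasts than those that chose the members. They used the same libraries, so they are not independent of the choice.

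Bread wheat is a hexaploid. It carries 3 related subgenomes, A, B and D, so that most genes of chromosome 3D have related copies, called homeologs, on chromosomes 3A and 3B. The IDs number the genes in their order along each chromosome, and the stretch ends close to the end of the long arm of 3D. Neither the files nor the gene tables used here pair these IDs with gene names, so members are called by ID, and a role is given only for the pair of members that the annotation terms of the study list.

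The WT was BW208, and E82 was derived from it. It carries a pair of silencing plasmids, named pghp8.1 and pGhp-ω/α, in which endosperm-specific promoters drive inverted repeats from γ-gliadin and from ω- and α-gliadin genes; gliadins are storage proteins of the grain, so the silencing construct is driven in the grain and not in the leaf. E82 is a single, repeatedly self-pollinated line. All plants were grown in a greenhouse, and seeds and flag leaves were taken at 20 days after anthesis (DAA) from 3 plants per line as biological replicates. The 12 libraries of ribosomal RNA-depleted total RNA thus fell into 4 groups of 3, namely WT grain, E82 grain, WT leaf and E82 leaf.

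The totals ranged from 27172814 to 59921014 estimated counts per library, and from 31558 to 64874 genes had a count. Among the leaf libraries those of the WT had the lower totals and the fewer genes, with 31558 genes in WT leaf replicate 3 and at most 45655 in the others, against 55916 to 59840 in E82 leaf. A list of 12 grain genes summed to 10495 to 12573 CPM (counts scaled to a common library size) in WT grain and 7575 to 8128 CPM in E82 grain, against at most 36.2 CPM in any leaf library. A list of 5 leaf genes summed to 8521 to 13034 CPM in WT leaf and 790 to 1952 CPM in E82 leaf, against at most 6.72 CPM in grain. All 12 grain genes had counts in WT grain, while 3 of them had none in E82 grain. The tissue labels thus held in every library.

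Many members were silent at this stage. Of the 848 members, 353 had no count in any of the 6 grain libraries, 420 had none in the 6 leaf libraries and 289 had none in all 12. In grain 415 members passed the filter of a CPM sum above 1 over the 6 libraries (48.9%, against 60.0% of the whole table) and another 80 had some counts but did not pass. In leaf 324 passed (38.2%, against 49.9%) and another 104 did not. A mean of at least 5 CPM over the 6 libraries, used below for well counted members, was reached by 183 members in grain and 156 in leaf, and by 110 in both. The longest transcript of the members had a median of 1290 bases, against 1397 for the whole table, and 12.1% of the members had more than 1 transcript, against 15.7%.

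The stretch took a larger share of the counts in E82 than in the WT in both tissues. As shares of library totals, without the scaling used for CPM, the difference was larger in grain than in leaf. That order depends on the scaling. With library totals alone the median log2 ratio of E82 over WT of all genes tested was 0.19 in grain and -0.06 in leaf. The scaled medians of the members, given below, were larger in leaf. In such bulk samples, more cells that express a gene and more RNA per cell cannot be told apart. In WT grain the members held 0.463%, 0.527% and 0.557% of the counts of replicates 1 to 3, and in E82 grain 1.02%, 1.06% and 1.03%. In WT leaf they held 0.394%, 0.345% and 0.337%, and in E82 leaf 0.576%, 0.663% and 0.557%. In both tissues every E82 library lay above every WT library. The mean share was 0.515% ± 0.0482 (SD, n = 3) in WT grain and 1.03% ± 0.0195 in E82 grain, a ratio of 2.01. In leaf it was 0.359% ± 0.0308 and 0.599% ± 0.0563, a ratio of 1.67. The remainder of chromosome 3D before the stretch held 3.89% of the counts in WT grain and 4.03% in E82 grain, and 4.21% and 4.16% in leaf.

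**Figure D1:**
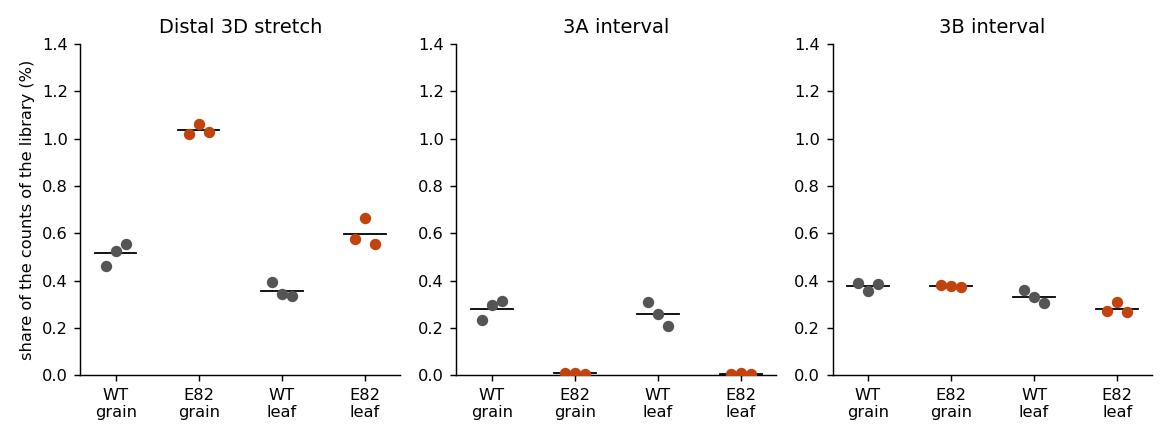
Share of all counts of a library, in percent, held by the 848 members on 3D, by an interval of 525 genes on 3A and by the last 837 genes of 3B; each point is 1 library and each line the mean of 3. The E82 points lie between 1.02% and 1.06% for the stretch in grain, above all WT points, while the 3A interval lies near 0 in E82 and the 3B groups overlap in grain.

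Gene by gene, the median ratio under TMM scaling was close to the ratio of the shares in grain and above it in leaf. The shares are of library totals, so the 2 scales differ. The median log2 fold change of E82 over WT (log2FC, with TMM scaling in edgeR) was 0.97 over the 415 members tested in grain, a 1.97-fold level, beside 0.01 over all 64706 genes tested. Among the 183 well counted members the median was 0.92 (1.9-fold), with a middle range from 0.60 to 1.19, beside -0.01 over the 30928 genes of that level. In leaf the median was 1.30 (2.46-fold) over 324 members tested, beside 0.21 over all 53874 genes, and 1.12 (2.18-fold) over 156 well counted members, with a middle range from 0.47 to 1.75, beside 0.14 over 26075 genes. Relative to all genes of that level, the median of the well counted members was thus 0.93 in grain and 0.99 in leaf. The median of all genes tested in leaf, 0.21, shifts with the scaling, and was 0.12 with RLE factors and -0.06 with library totals alone. With library totals alone the members tested had a median log2FC of 1.13 in grain and 1.06 in leaf. Converted from log2 to fold, both lay above the ratio of the shares of that tissue. The middle range was 0.59 wide in grain and 1.28 wide in leaf, against 0.54 and 1.13 for all genes of that level, so the members were scattered around their own median somewhat more than all genes were around theirs.

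The 3 libraries of E82 gave similar median ratios in each tissue. Taken against the mean of the WT, the median ratio of the 183 members was 1.8, 1.89 and 1.85 in the E82 grain libraries, with 87.4% to 90.2% of the members above the WT mean in each, and 1.0, 0.975 and 0.977 in those of WT grain. In leaf the median ratio of the 156 members was 2.08, 2.1 and 2.12 in E82, and 1.04, 1.02 and 0.812 in the WT. WT leaf replicate 3 stood below the other WT leaf libraries. In that library 47 of the 156 members had 3 counts or fewer, against 4 in each of the others of WT leaf and none in E82 leaf.

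In grain the E82 libraries all lay above the WT libraries for 187 of the 415 members tested, where 7.1% of all genes tested did so, and all below for 13, where 9.28% of all genes did so. In leaf the E82 libraries all lay above for 171 of 324 members, where 23.8% of all genes did so, and all below for 6, where 7.39% did so. By edgeR's quasi-likelihood fit, adjusted after Benjamini-Hochberg over all genes, at 0.05, 27 members were counted as higher in E82 grain (background 0.0927%) and 1 as lower (background 1.31%). These 27 were 45.0% of the 60 genes counted as higher in the whole table. In leaf 1 member was counted as higher (background 0.0204%) and 0 as lower (background 0.143%), beside 6 members lower at an unadjusted p under 0.05 in edgeR and 5 lower with DESeq2. The rule used this contrast, and nothing is read from these counts. They hung on single libraries. Without 1 library the 28 members of grain became between 0 (without E82 grain replicate 2) and 37 (without WT grain replicate 3), with 17, 6, 3 and 1 without WT grain replicates 1 and 2 and E82 grain replicates 1 and 3, and the 1 member of leaf became 86 without WT leaf replicate 1, 1 without WT leaf replicate 3 and 0 without any other leaf library.

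The size of the ratio changed little with the number of counts of a gene in grain. Members with a mean under 1 CPM had a median log2FC of 1.24 (108 members), those of 1 to 10 CPM 1.004 (182 members), those of 10 to 100 CPM 0.88 (113 members) and those of 100 CPM or more 1.06 (12 members). All genes of the same classes had medians of 0.03, 0.04, -0.02 and 0.03. Classes of CPM follow the length of a gene as well as its level. The scatter narrowed as counts rose, with a middle range from -0.39 to 2.50 under 1 CPM and from 0.59 to 1.15 at 10 to 100 CPM.

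In leaf the lowest class stood apart. Members under 1 CPM had a median log2FC of 5.21 (77 members), where all genes of that class had 1.22, and many of these genes had no count in WT leaf, so that their fitted ratio is no measure of size. Members of 1 to 10 CPM had 1.15 (142 members), those of 10 to 100 CPM 1.13 (97 members) and those of 100 CPM or more 1.15 (8 members), beside 0.14, 0.12 and 0.65 for all genes. Set against all genes of the same class, the members were higher by 1.01 at 1 to 10 CPM and at 10 to 100 CPM, and by 0.50 at 100 CPM or more.

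**Figure D2:**
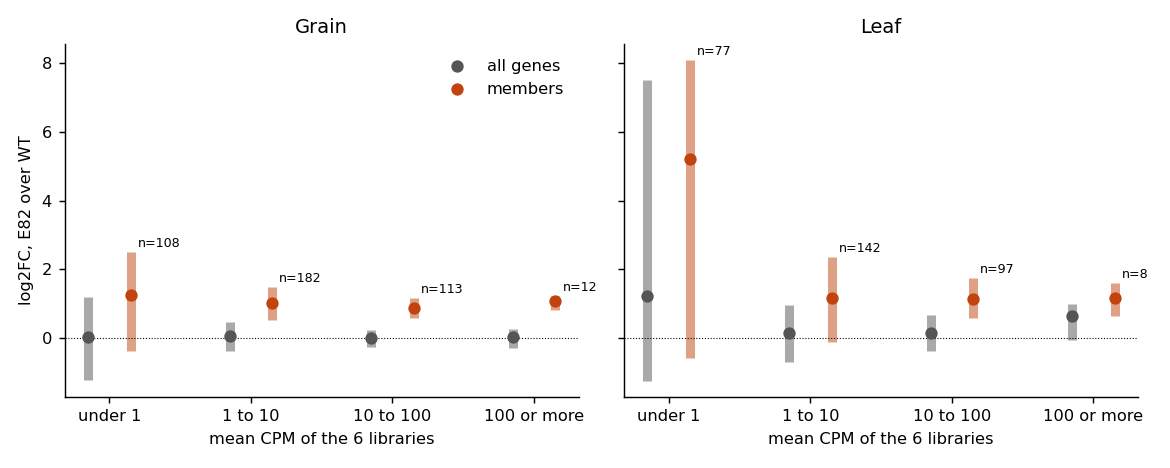
Median (points) and middle range (bars, between the quartiles) of log2FC of E82 over WT in 4 classes of mean CPM over the 6 libraries of a tissue, for the members (orange, with their number) and for all genes tested (grey). The member medians of grain lie between 0.88 and 1.24 while those of all genes lie near 0; in leaf the class under 1 CPM reaches 5.21.

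The higher level ran along the whole stretch. In successive blocks of 50 well counted members, with 33 in the last, the median log2FC of grain was 0.91, 0.98, 0.89 and 1.03. The 3 blocks of 50 genes before the first member had -0.04, -0.01 and -0.01. In leaf the blocks had 0.96, 1.36 and 0.89, the last with 56 members, after 0.04, 0.13 and -0.02 in the blocks before. With blocks of 25 genes, the lowest median was 0.77 in grain and 0.71 in leaf. No block inside the stretch had a median near 0. The correlation of the length of the longest transcript with log2FC was r = -0.02 over 183 members in grain and r = 0.15 over 156 in leaf (across genes of the same libraries, as a description).

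**Figure D3:**
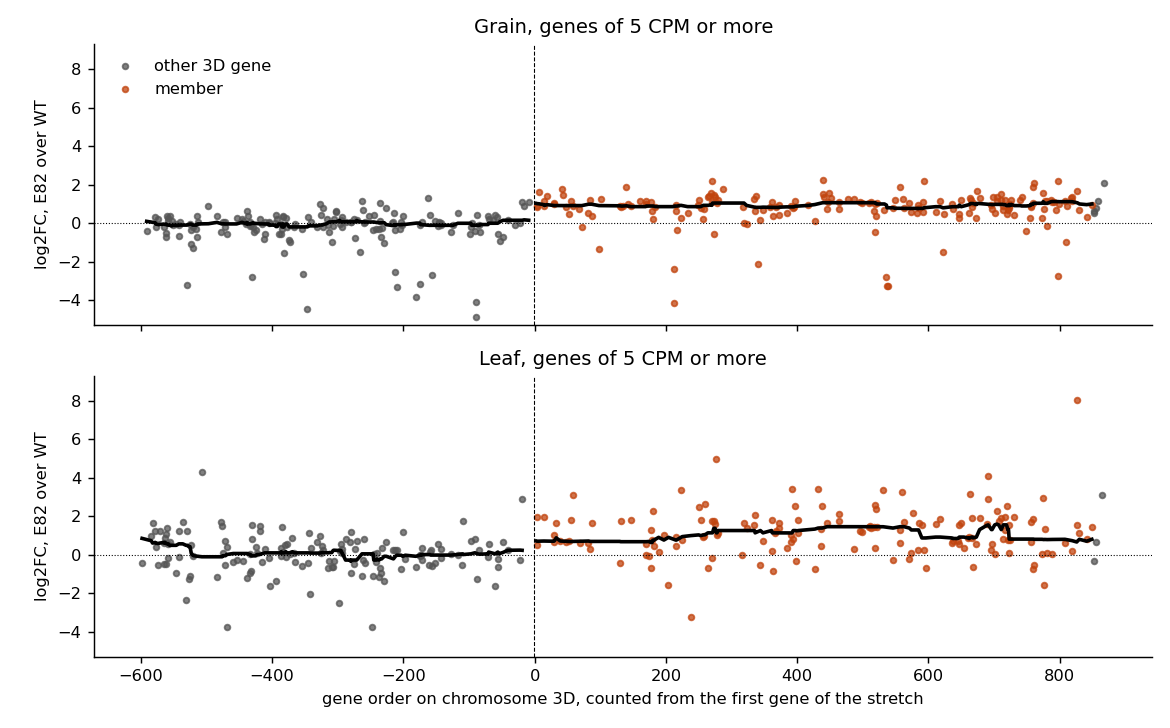
Log2FC of E82 over WT for genes of at least 5 CPM on distal 3D, in their order by ID from the first gene of the stretch (dashed line), in grain (top) and leaf (bottom); orange points are members, grey points other 3D genes, and black lines running medians of 25 genes, taken separately for genes before the stretch and for members. In grain the line runs near 0 before the stretch and near 1 inside it, the last grey points before the dashed line lie with the members, and single members lie far below.

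In grain the ends of the rule's range did not coincide with the ends of the rise. TraesCS3D02G457000, the first member, had 3.79, 4.18 and 3.41 CPM in WT grain and 8.6, 3.51 and 6.13 CPM in E82 grain, so its groups overlapped. The 2 members after it, TraesCS3D02G457100 and TraesCS3D02G457200, had at most 72 counts in any grain library. Just outside, TraesCS3D02G456700, TraesCS3D02G456800 and TraesCS3D02G456900 were nearly silent, with at most 29 counts, but slightly farther out TraesCS3D02G456100 had a mean of 8.46 CPM in WT grain and 17.9 CPM in E82 grain (log2FC 1.08), and TraesCS3D02G455100 had 11.4 and 24.4 CPM (log2FC 1.099). The next well counted gene away from the stretch, TraesCS3D02G454800, had 27.3 and 27.2 CPM (log2FC 0.00). At the other end TraesCS3D02G543100, the last member, had 7.58, 5.91 and 5.29 CPM in WT grain and 11.1, 12.5 and 12.1 CPM in E82 grain, without overlap. Before it TraesCS3D02G542900 had no count and TraesCS3D02G543000 had at most 14. Beyond it, TraesCS3D02G543200 and TraesCS3D02G543300 were silent in grain, TraesCS3D02G543400 had a log2FC of 0.54 in grain, and the 5 well counted genes of the 27 remaining on 3D had a median of 0.80 in grain, all above 0. In leaf only 3 genes there were well counted, and they were mixed. TraesCS3D02G543400 had a log2FC of -0.34, TraesCS3D02G543800 0.64 and TraesCS3D02G544700 3.10. Taking the stretch from TraesCS3D02G455100 to the end of 3D, an extent chosen after these values were seen, gave medians of 0.96 in grain and 1.30 in leaf.

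Some well counted members went against the rise. In grain 17 of the 183 had a log2FC below 0, where 50.6% of all genes of that level did, and 5 had one above 2, that is more than 4-fold, where 0.097% did. Of the 17, E82 lay wholly below the WT in 5, which were TraesCS3D02G467300, TraesCS3D02G478800, TraesCS3D02G491900, TraesCS3D02G520100 and TraesCS3D02G538000. The best measured was TraesCS3D02G467300, a gene without a count in leaf, which took more counts in WT grain than all but a few members. It had 612, 516 and 352 CPM in WT grain and 170, 178 and 226 CPM in E82 grain, 2.58-fold less in E82 and without overlap. The WT libraries differed from each other by more than the lowest of them differed from E82. It was the 1 member counted as lower in E82. Its log2FC lay between -1.57 and -1.11 in all 14 alternative fits, but it did not pass the threshold in all of them.

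TraesCS3D02G478800 showed the largest fall, with 464, 146 and 22 CPM in WT grain against 12.2, 14.4 and 9.2 CPM in E82 grain (log2FC -4.14). Here too the WT libraries differed from each other by more than the lowest of them differed from E82. TraesCS3D02G538000 had 17.3, 7.78 and 2.02 CPM in WT grain and 0.639, 1.87 and 1.46 CPM in E82 grain (log2FC -2.77). TraesCS3D02G511600 had 19.2, 10.6 and 1.43 CPM against 2.08, 1.42 and 0.897 CPM (log2FC -2.82), and here WT grain replicate 3 lay within the range of E82. TraesCS3D02G511614 and TraesCS3D02G511617 held the same counts as each other in every library, and their longest transcripts have the same length of 705 bases, so reads from these copies were split evenly and cannot be told apart. Each had 27.8, 6.78 and 0.303 CPM in WT grain and 1.07, 1.64 and 0.926 CPM in E82 grain.

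The WT grain libraries differed from each other in this group. Of the 17 members below 0 in grain, 15 had their highest WT value in WT grain replicate 1 and 15 had their lowest in WT grain replicate 3. No share over all genes was set beside these numbers. Without WT grain replicate 1, 11 members lay below 0 and 2 above 2, and without WT grain replicate 3, 21 lay below 0 and 6 above 2. Of the 17 members, 10 had no count in any leaf library. For this number too, no share over the other well counted members or over all genes was set beside it. The part of this spread in their low ratios was not tested.

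TraesCS3D02G514700, which the annotation terms of the study list under transfer of glycosyl groups, belongs beside them, although its mean over 6 libraries was under 5 CPM. It had 19, 4.58 and 0.727 CPM in WT grain and 0, 0.409 and 0.538 CPM in E82 grain, and no count in leaf. Its groups did not overlap, and again WT grain replicate 3 came close to E82.

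The 5 members above 2 in grain were TraesCS3D02G484600, TraesCS3D02G501800, TraesCS3D02G517100, TraesCS3D02G534200 and TraesCS3D02G537900, and E82 lay wholly above the WT in each. TraesCS3D02G517100 had 2.03, 6.21 and 6.14 CPM in WT grain and 19.7, 26.6 and 19.8 CPM in E82 grain, 4.59-fold more. In leaf the same gene had 27.5, 22.4 and 23 CPM in the WT and 22.6, 46.1 and 17.3 CPM in E82, with overlap. TraesCS3D02G501800 had 1.44, 3.34 and 1.25 CPM in WT grain and 7.55, 12.3 and 8.67 CPM in E82 grain, 4.72-fold more, with a log2FC of -1.64 and overlapping groups in leaf. TraesCS3D02G534200 ranged from 3.99 to 39.2 CPM in WT grain and from 69.3 to 97.5 CPM in E82 grain.

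**Figure D4:**
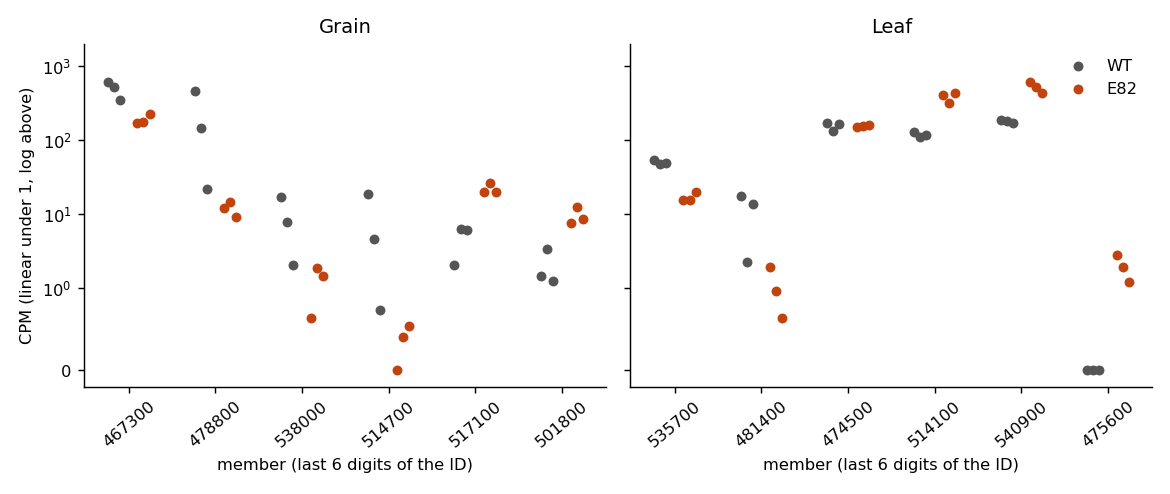
CPM of single libraries (3 points a line, axis linear under 1 and logarithmic above) for 6 members in grain and 6 in leaf, WT in grey and E82 in orange. TraesCS3D02G467300 in grain and TraesCS3D02G535700 in leaf lie lower in E82 without overlap, TraesCS3D02G474500 in leaf lies at the same level in both lines, and WT grain points of TraesCS3D02G478800, TraesCS3D02G538000 and TraesCS3D02G514700 spread over a wide range.

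In leaf 20 of the 156 well counted members had a log2FC below 0, where 43.4% of all genes of that level did, and 24 had one above 2, where 1.88% did. E82 lay wholly below the WT in 3 of the 20, namely TraesCS3D02G481400, TraesCS3D02G492200 and TraesCS3D02G535700. TraesCS3D02G535700 had 54.6, 48.2 and 49.8 CPM in WT leaf and 15.6, 15.4 and 19.9 CPM in E82 leaf, 2.99-fold less. In grain it had 10.3, 9.86 and 10.2 CPM in the WT and 9.63, 22.2 and 18.1 CPM in E82. TraesCS3D02G481400 had 17.6, 2.28 and 13.8 CPM in WT leaf and 1.91, 0.967 and 0.641 CPM in E82 leaf (log2FC -3.25), while in grain its log2FC was 1.86. TraesCS3D02G478000 (log2FC -1.57), TraesCS3D02G494100 (-0.87) and TraesCS3D02G534000 (-0.73) were the next lowest, and their groups overlapped in leaf.

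Of the 24 members above 2 in leaf, 17 had 3 counts or fewer in WT leaf replicate 3. TraesCS3D02G540800 had 0.224, 0 and 0 CPM in WT leaf and 18.8, 23.5 and 20.1 CPM in E82 leaf. It was close to silent in grain, with at most 49 counts in a library. TraesCS3D02G485300 had 0.249, 0.797 and 0 CPM in WT leaf and 12.7, 7.68 and 13.4 CPM in E82 leaf. TraesCS3D02G527200 had 2.84, 0.0228 and 0 CPM against 15.9, 19.9 and 13 CPM, and TraesCS3D02G501100 had 2.44, 2.62 and 0 CPM against 18.8, 17.2 and 17.8 CPM. TraesCS3D02G497000 had 13.6, 3.55 and 0 CPM in WT leaf and 64.7, 45.8 and 69.7 CPM in E82 leaf. Of the 24, 3 had 3 counts or fewer in WT leaf replicate 2 and 2 in WT leaf replicate 1. The number above 2 was 24 without WT leaf replicate 3 as well, but 40 without WT leaf replicate 1 and 38 without WT leaf replicate 2.

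A few members were counted in one line only, defined as at least 10 counts in each library of one line and at most 3 in each of the other. In grain 5 members were found in E82 only (0.59% of the members, against 0.101% of the whole table) and 4 in the WT only (0.472%, against 0.776%). TraesCS3D02G494200 had no count in WT grain and 353, 64 and 85 counts in E82 grain, a level at least 57.1-fold higher against a floor of 3 counts in each WT library. The others were TraesCS3D02G537200, TraesCS3D02G495800, TraesCS3D02G478500 and TraesCS3D02G496100, at least 23.0-, 20.6-, 9.56- and 9.54-fold higher. The 4 found in the WT only were TraesCS3D02G468400, TraesCS3D02G487500, TraesCS3D02G493800 and TraesCS3D02G523100. TraesCS3D02G487500 had 46, 71 and 62 counts in WT grain and none in E82 grain, at least 17.8-fold lower. TraesCS3D02G468400 rested on WT grain replicate 2, with 231 counts there and 23 and 25 in the other WT libraries. In leaf 40 members were found in E82 only (4.72%, against 3.59% of the whole table) and 0 in the WT only (against 0.117%). The share of 4.72% thus lay near that of the whole table.

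The leaf genes found in E82 only included TraesCS3D02G475600, which the annotation terms of the study list under glucose binding and glucose homeostasis. It had no count in WT leaf and 144, 102 and 60 counts in E82 leaf, at least 24.6-fold higher. In grain it did not share the rise, with 21.9, 14.1 and 13.8 CPM in the WT and 13.8, 23.7 and 20.9 CPM in E82, where the groups overlapped (log2FC 0.23). TraesCS3D02G528900 had no count in WT leaf and 261, 261 and 426 counts in E82 leaf, at least 77.0-fold higher. TraesCS3D02G497300, TraesCS3D02G459000, TraesCS3D02G480800 and TraesCS3D02G494500 followed, at least 54.0-, 39.2-, 38.2- and 27.6-fold higher. Each of these genes had at most 2 counts in any WT leaf library.

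Of the 6 members with the most counts, 5 lay wholly higher in E82 in grain and 5 in leaf. The exceptions were TraesCS3D02G467300 in grain, which was lower in E82 as given above, and TraesCS3D02G536300 in leaf, with a log2FC of 0.11 and overlapping groups. Together the 6 held 37.3% of the counts of the stretch in grain and 31.5% in leaf. TraesCS3D02G517000, absent from leaf, had 694, 373 and 911 CPM in WT grain and 1438, 1297 and 1432 CPM in E82 grain, 2.11-fold more and without overlap. TraesCS3D02G484000 had 197, 236 and 242 CPM against 429, 711 and 620 CPM in grain, 2.61-fold more, but 30.6, 25.1 and 67.6 CPM against 15.6, 50.7 and 9.89 CPM in leaf, where the groups overlapped. TraesCS3D02G536300 ranged from 196 to 510 CPM in WT grain and from 654 to 809 CPM in E82 grain. TraesCS3D02G529500 had 167, 228 and 164 CPM against 330, 346 and 376 CPM in grain and 105, 98.6 and 74.2 CPM against 158, 165 and 164 CPM in leaf, so E82 lay above the WT in both.

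In leaf the most counts went to TraesCS3D02G540900, with 188, 181 and 172 CPM in the WT and 621, 531 and 435 CPM in E82, 2.93-fold more. In grain it was 3.2-fold higher in E82. TraesCS3D02G534100 had 145, 92.1 and 99.9 CPM against 335, 478 and 415 CPM in leaf, 3.64-fold more, and was 3.66-fold higher in grain. TraesCS3D02G514100, the 1 member counted as higher in leaf, had 130, 111 and 117 CPM against 405, 315 and 436 CPM, 3.23-fold more. TraesCS3D02G485400 (log2FC 1.04 in leaf and 1.04 in grain) and TraesCS3D02G494600 (1.25 and 0.83) were nearer to the median of the stretch. No E82 value overlapped a WT value of leaf in any of these 5 genes.

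Over the 110 members well counted in both tissues, 95 lay above 0 in both, 13 above 0 in grain only, 2 above 0 in leaf only and 0 below 0 in both. These are the ratios that chose the members, and no share over all genes was set beside the counts, so nothing is read from them. The correlation of the log2FC of grain with that of leaf was r = 0.06 (Spearman's rho 0.07) over these 110 genes, each pair of values coming from the same 12 libraries. Over all 19620 genes of that level in both tissues it was r = 0.51 (rho 0.07), so the rank correlation of the members was like that of all genes. The log2FC was larger in grain than in leaf for 44 of the 110 members, again without a share over all genes.

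**Figure D5:**
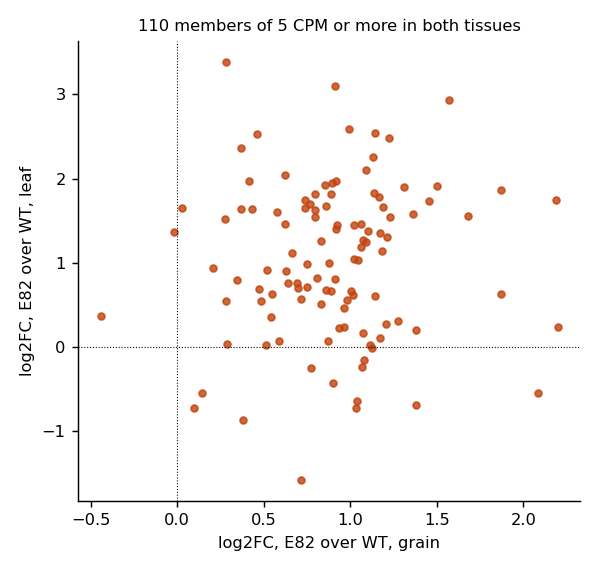
Log2FC of E82 over WT in leaf (vertical) against grain (horizontal) for the 110 members of at least 5 CPM in both tissues; each point is 1 gene. Of the points, 95 lie above 0 on both axes, and the correlation is r = 0.06. The ratios shown are those that chose the members.

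A term for line by tissue in edgeR (quasi-likelihood fit, Benjamini-Hochberg adjustment over 70086 genes) compared the ratio of E82 to WT in grain with that in leaf. It is built from the ratios that chose the members, so its counts and values are a description, and nothing is read from them. Of 475 members tested, 4 passed with a larger ratio in grain (0.842%, background 0.361%) and 14 with a larger ratio in leaf (2.95%, background 2.57%). All 14 of the second kind had 3 counts or fewer in every WT leaf library, as did 1685 of the 1803 genes of the whole table that passed in that direction. The clearest of the first kind was TraesCS3D02G535700, described above, with an interaction of 2.30 on the log2 scale (standard error 0.437). TraesCS3D02G474500 had 158, 178 and 193 CPM in WT grain and 357, 454 and 342 CPM in E82 grain, but 170, 134 and 166 CPM in WT leaf and 151, 155 and 161 CPM in E82 leaf. It was thus 2.18-fold higher in grain and level in leaf, and the interaction was 1.13 (standard error 0.272), just past the threshold. TraesCS3D02G464600 had 46.9, 30.6 and 24.6 CPM against 29.9, 27.8 and 32.3 CPM in grain, without a rise, and 3.23, 2.69 and 10.8 CPM against 0.309, 0.13 and 0.681 CPM in leaf (interaction 3.72). The number of members that passed ranged from 4 (without E82 grain replicate 2 or 3) to 43 (without WT leaf replicate 1) when 1 library was left out, and was 0 with the replicate number as a block and 42 with DESeq2.

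The comparison of grain with leaf within a line was not the contrast that chose the members, but it used the same libraries. In the WT 116 of 410 members tested were higher in grain (28.3%, background 21.3%) and 30 were higher in leaf (7.32%, background 8.59%), by edgeR's quasi-likelihood fit, adjusted after Benjamini-Hochberg over 64739 genes. In E82 147 of 440 were higher in grain (33.4%, background 27.2%) and 102 higher in leaf (23.2%, background 23.2%), over 64737 genes. The median log2FC of grain over leaf was 1.20 over the members in the WT, beside 0.73 over all genes, and 0.65 in E82, beside 0.24. Leaving out 1 WT leaf library left 123 to 148 members in the WT comparison, but leaving out WT grain replicate 1, 2 or 3 left 30, 26 or 29. Higher in grain and higher in leaf were then 15 and 15, 11 and 15, or 16 and 13 members, and 15 and 13 with the replicate number as a block, so the excess of members higher in WT grain rested on having all 3 WT grain libraries.

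Among the members highest in WT grain over leaf, TraesCS3D02G517000 (adjusted p = 0.00183 in edgeR), TraesCS3D02G467300 (0.00152) and TraesCS3D02G478800 (0.016) had no count in any leaf library of either line. They were also higher in grain than in leaf in E82 (adjusted p = 4.63e-06, 5.64e-06 and 4.36e-05 in edgeR). So TraesCS3D02G517000 rose and TraesCS3D02G467300 fell with the same tissue pattern. At the other side TraesCS3D02G476500, TraesCS3D02G497900 and TraesCS3D02G475200 had no count in grain and were leaf genes in the WT (adjusted p = 0.0287, 0.0215 and 0.00618 in edgeR). Over the 14 alternative fits with edgeR, DESeq2 or limma, their highest adjusted p in the WT was 0.0708, 0.0671 and 0.072. That of TraesCS3D02G478800 was 0.0679, so these calls did not hold in every fit. TraesCS3D02G497900 had 12.7, 1.23 and 23.5 CPM in WT leaf and 48.5, 36.9 and 43.4 CPM in E82 leaf, without overlap. TraesCS3D02G475200 had 14.5, 11.6 and 7.77 CPM against 12.5, 6.83 and 1.9 CPM, and TraesCS3D02G476500 had 43.8, 20.6 and 0.706 CPM against 43.2, 20.9 and 7.25 CPM, both with overlap.

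The intervals compared on 3D and 3A were bounded at both ends by genes that the tables of the study list together. The 3B interval was bounded in this way only at its start and ran to the end of 3B (837 genes). Its far end was thus not matched to those of the others. No pairing of single homeologs was used. The 3D interval held 644 genes, the 2 genes left out included. There the median log2FC of well counted genes was 0.93 in grain (148 genes) and 1.13 in leaf (127 genes). In the 3A interval of 525 genes it was -10.48 in grain (57 genes) and -8.34 in leaf (48 genes), and none of these genes had a value above 0. On 3B it was -0.05 in grain (130 genes) and 0.02 in leaf (112 genes). The 3A values rest on genes with no or few counts in E82 and are no measure of size. As shares of all counts, the 3A interval held 0.281% ± 0.0417 in WT grain and 0.00922% ± 0.00144 in E82 grain (SD, n = 3), and 0.26% ± 0.0507 and 0.00767% ± 0.00271 in leaf. The 3B interval held 0.377% ± 0.0194 and 0.378% ± 0.00502 in grain, and 0.332% ± 0.0263 and 0.282% ± 0.0226 in leaf.

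On 3D the same interval rose from 0.405% to 0.867% in grain and from 0.282% to 0.47% in leaf. The gain on 3D in grain was thus larger than the loss on 3A. The 3 intervals were then summed as shares of library totals, with 3B taken to its end. Together they held 0.983%, 1.05% and 1.15% in WT grain and 1.25%, 1.27% and 1.24% in E82 grain, without overlap. In leaf they held 0.982%, 0.86% and 0.78% in the WT and 0.723%, 0.846% and 0.711% in E82, with overlap. The TMM factors were 0.798, 1.03 and 1 in WT grain and 1.08, 1.06 and 1.06 in E82 grain. Divided by these factors, the summed grain shares of the lines overlap, so no net gain is read from them. The counts of homeologs that share sequence were divided between them by the estimation of the deposited counts. The part of that division in the ratios was not tested.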

How the data were processed

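Total RNA of grain and flag leaf was sequenced in 12 libraries. The authors trimmed reads (Trimmomatic 0.36) and pseudoaligned them to the RefSeq v1.1 wheat transcripts with kallisto 0.44.0. The deposited gene table holds estimated counts per gene, and the deposited tables of each library hold TPM per transcript. The members and lists were chosen with earlier results of these data known. Estimated counts were rounded, and genes with a CPM sum above 1 in the fit were tested in edgeR 4.0.16 (R 4.3.3) with TMM and glmQLFit/glmQLFTest, each tissue on its own 6 libraries, the interaction on all 12 and each line on its 6, with Benjamini-Hochberg adjustment over all genes tested and a threshold of 0.05. CPM are TMM-scaled, and shares are of library totals. The fits were tested on simulated counts. Alternatives used DESeq2 1.42.0, limma 3.58.1 on log2 TPM with a pseudocount of 1 or 0.1, other scalings and filters, a replicate block and leaving out each library. Named members were, per tissue, the 6 with the highest mean CPM, the 5 lowest and 5 highest ratios at 5 CPM or more, and up to 5 in each direction counted in 1 line only (at least 10 counts against at most 3). Also named were the 3 genes at each side of each end, the pair of annotated members, up to 3 members per direction with an interaction, and the 3 most biased to each tissue in the WT. TraesCS3D02G491900, TraesCS3D02G520100, TraesCS3D02G492200 and the flanking genes beyond 3 from an end were named after their values were seen. The floor of 3 counts is per library, and floors and counts cover counting error only. Same-numbered libraries did not deviate together, so numbers were not taken as pairs. The p-values measure the spread between 3 plants per line, and only 1 line of E82 was sampled.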

Additional observations from a re-analysis of the deposited data

Results flagged for a closer look

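The interaction of line and tissue in edgeR passed the threshold for 18 members. It is the difference of the same ratios of E82 to WT that chose the stretch, so the p-values below only say what drew attention to these genes and are not independent evidence. Named members among them were TraesCS3D02G475600, TraesCS3D02G497300 and TraesCS3D02G529400, each with an adjusted p = 0.00597 in edgeR, no count in WT leaf and 60 to 311 counts in each library of E82 leaf. TraesCS3D02G459000 had an adjusted p = 0.0224 with at most 2 counts in WT leaf, and its interaction of -5.28 became 0.14 on log2(TPM + 1). TraesCS3D02G535700 (adjusted p = 0.019 in edgeR), TraesCS3D02G464600 (0.0475) and TraesCS3D02G474500 (0.0498) had the larger ratio in grain. In each group of 3 libraries no test for a stray library was made.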

How the results depend on the processing

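The direction of the medians and shares held under all alternatives run, while the numbers of members called did not. Members called in E82 grain numbered 28, and 44 with library totals alone, 55 without a filter, 98 with DESeq2, 5 with limma on log2(TPM + 1), 15 with a replicate block and 0 to 37 without 1 library. In E82 leaf 1 was called, and 0 with RLE factors, 2 with library totals, 50 with filterByExpr, 3 without a filter, 63 with DESeq2, 17 with limma and 0 to 86 without 1 library. The interaction was called in 18, and in 42 with DESeq2, 10 with limma, 0 with a replicate block and 4 to 43 without 1 library. Between WT grain and leaf 146 were called, with 28 under a replicate block and 26 to 148 without 1 library. Between E82 grain and leaf the number was 249, with 196 under the block and 217 to 245 without 1 library. The interaction of TraesCS3D02G459000 reversed to 0.14 with limma on log2(TPM + 1). The cause of these changes was not tested.

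The median log2FC of grain, 0.97, was 0.92 at 5 CPM or more, 1.13 with library totals, 0.93 without a filter, 0.72 and 1.11 with limma on log2(TPM + 1) and log2(TPM + 0.1), 1.04 under the replicate block and 0.94 to 1.03 without 1 library. That of leaf, 1.30, was 1.12, 1.06, 1.74, 0.62, 1.44, 2.27 and 1.15 to 1.53 under the same settings, and 1.22 with RLE factors. The ratio of shares was 2.01 in grain, 2.32 with summed TPM, 1.94 without the 10 most abundant members and 1.91 to 2.09 without 1 library. In leaf it was 1.67, 1.48 with summed TPM and 1.58 to 1.76 without 1 library.

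At 10 CPM or more, 9 members lay below 0 and 3 above 2 in grain, and 12 and 14 in leaf. With library totals 32 lay below 0 in leaf. Without 1 library the numbers were 11 to 21 and 2 to 7 in grain, and 20 to 27 and 24 to 40 in leaf. With library totals the classes of 1 to 10, 10 to 100 and 100 CPM or more had medians of 1.19, 1.06 and 1.24 in grain, and the 4 classes of leaf had 4.96, 0.89, 0.85 and 0.86. The lowest block median was 0.77 in grain and 0.71 in leaf with 25 genes a block, and 1.07 and 0.62 with library totals. The highest was 1.19 in grain and 1.11 in leaf with library totals, and 1.46 in leaf with 25 genes. Over all genes tested the intervals on 3D, 3A and 3B had medians of 0.97, -8.56 and -0.06 in grain and 1.29, -8.18 and 0.17 in leaf. Of 2279 values of single genes, 2010 were labelled as kept, 123 as moved, 145 as having lost their call and 1 as reversed. Kept values held their direction and side of the threshold or moved by less than the spread. Lost calls and changes of sign are not all among the 145 and the 1. In grain TraesCS3D02G464600 went from a log2FC of -0.18 to 0.09 without WT grain replicate 1 and was labelled as moved. TraesCS3D02G459000 went from an adjusted p of 0.0462 in edgeR to 0.189 without E82 grain replicate 1 and was labelled as kept.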
